A study of Mus musculus with 15 samples.

Results

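The JAK2-STAT genes and their feedback genes were followed here across 15 RNA-seq libraries of MLL-ENL-transformed mouse fetal liver cells. The 10 genes are Jak2, Stat5a, Stat5b, Stat3, Cish, Socs1, Socs2, Socs3, Pim1 and Osm, chosen by their symbols out of the 53379 genes of the deposited table. All 10 passed the filter on low values, as did 12673 genes in all.

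The cells were fetal liver stem and progenitor cells transformed with a retrovirus carrying the oncogenic MLL-ENL fusion gene, and all lines grew in IMDM with 10% FCS and murine IL-3 at 10 ng/ml. WTFL cells, labelled wild-type, carried floxed but undeleted Cebpa and Cebpb alleles and have no exogenous gene in their label. In dKO cells both genes had been deleted with TAT-Cre, and the label adds exogenous GFP. dKO-LAP* cells had the same deletions and carried GFP together with LAP*, an isoform of rat C/EBPβ brought in by retrovirus. C1 and C2 are lines from different mice. WTFL and dKO cells of both lines and dKO-LAP* cells of C1 were analysed here, with 3 libraries in each of the 5 groups. Every line is 1 clone, and its 3 RNA samples were taken at different times, so p-values measure the spread between such samples and not between clones or animals. The dKO lines were rare survivors that grew out after cells with partial deletions had been pooled and treated again. Clonal origin and genotype therefore cannot be told apart. Below, an effect is the log2 fold change of dKO against WTFL cells, and not a proven result of the deletions. Cebpa and Cebpb had 0 reads in all 6 dKO libraries, and Cebpb had 2538 to 4216 normalized reads in the dKO-LAP* libraries.

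IL-3 binds a receptor that has no kinase of its own. The receptor activates the kinase JAK2, which phosphorylates STAT5A and STAT5B, and these then enter the nucleus and switch on genes such as Cish, Socs2, Pim1 and Osm. Proteins of the CIS and SOCS family bind the receptor or the kinase and damp the signal, so they form a feedback loop. STAT3 is used chiefly by receptors that contain gp130, the protein encoded by Il6st, and SOCS3 is the main brake of that branch. mRNA levels, as measured here, say nothing of phosphorylation.

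STAT dimers bind a palindromic DNA element, TTCNNNGAA, which was looked up on both strands in the 300-base RefSeq promoter windows (GRCm38.p6, 250 bases before to 50 after a start). The table held windows for 8 of the 10 genes. The element was found in 2 of the 11 windows of these genes, those of Socs3 and Cish, and in 8.3% of all 32851 windows. The C/EBP element TTGCNNAA, also searched on both strands, was in none of the 11 windows of the 8 genes and in 10.8% of all windows. The bases before the Socs3 start and the first bases of Cish are shown because they hold these matches, and capitals mark the element.
Socs3, mm10 chr11:117969367-117969616, minus strand: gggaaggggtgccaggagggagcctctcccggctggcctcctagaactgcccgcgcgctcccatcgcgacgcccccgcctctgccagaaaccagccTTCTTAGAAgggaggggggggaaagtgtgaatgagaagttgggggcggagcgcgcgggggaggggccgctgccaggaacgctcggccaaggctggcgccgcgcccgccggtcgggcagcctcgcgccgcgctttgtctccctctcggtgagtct
Cish, mm10 chr9:107296659-107296680, plus strand: TTCCTGGAAagTTCTTGGAAat
The Socs3 match begins 154 bases before the RefSeq start. The GENCODE spans of Socs3 and Cish, given with their values, begin further upstream, so these matches lie inside the spans. Cish holds a pair of matches, which begin at bases 1 and 12 of its RefSeq transcript. A match of these letters is a description of the window and not a measured binding site.

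In C1, 3 of the 10 genes (Jak2, Socs2 and Cish) were higher and 5 (Stat5b, Stat3, Socs3, Pim1 and Osm) were lower in dKO than in WTFL cells at an adjusted p under 0.05 in limma. Of all genes tested there, 17.1% were called higher and 19.9% lower. In C2, 2 genes (Jak2 and Socs1) were higher and 2 (Stat5b and Stat3) lower, against 17.4% and 20.1% of all genes. A fit of only the C2 groups called 7 of the 10, beside 2175 of all genes higher and 2535 lower. The median log2 fold change of the 10 genes was -0.42 in C1 and 0.02 in C2, beside -0.01 and -0.03 over all genes tested. Jak2 was called higher, and Stat5b and Stat3 lower, in C1 and again in C2. Between dKO-LAP* and dKO cells none of the 10 genes was called in limma or edgeR, and DESeq2 called Stat5b and Cish. The values for each gene follow, in normalized reads (reads divided by the size factor of the library), by role from the kinase to the secreted ligand.

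**Figure D1:**
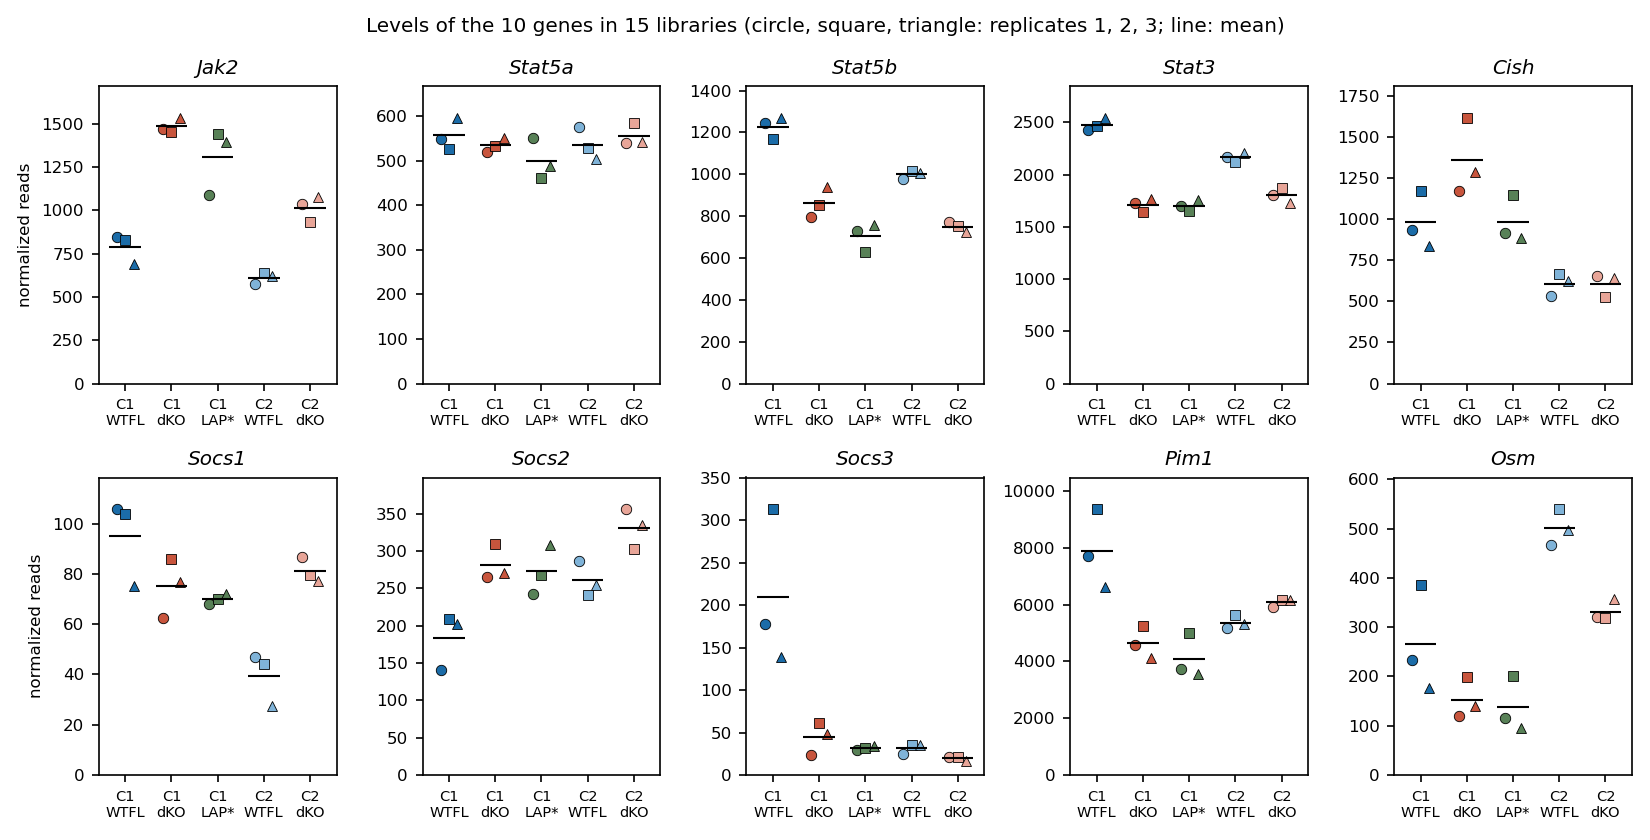
Normalized reads (y axes, linear, from 0) of the 10 genes in the 5 groups (x axes). Each point is 1 library, its shape gives the replicate number, and the line is the mean of 3. Jak2 was higher and Stat5b and Stat3 lower in every dKO library than in every WTFL library of the same clone, while Stat5a lay between 461 and 596 in all 15 libraries.

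Jak2, on chromosome 19 from 29251828 to 29313080 on the plus strand of mm10, encodes the kinase that sits on the IL-3 receptor. It had 844, 832 and 692 normalized reads in the WTFL libraries of C1 and 1471, 1455 and 1535 in its dKO libraries. In C2 it had 573, 636 and 618 in WTFL and 1039.9, 932 and 1077 in dKO libraries. Every dKO library was above every WTFL library of its clone. The rise was 1.89-fold in C1 (log2 0.92, standard error 0.10, adjusted p = 4.3e-06, limma) and 1.67-fold in C2 (log2 0.74, standard error 0.10, adjusted p = 4.5e-05, limma). The difference between the clones did not pass the threshold (log2 -0.18, 95% interval -0.49 to 0.13, adjusted p = 0.39, limma). In dKO-LAP* cells Jak2 had 1092, 1441 and 1396 normalized reads, all above the WTFL libraries of C1 and below its dKO libraries.

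The 3 STAT genes are neighbours on chromosome 11. Stat5b runs from 100780731 to 100850724 on the minus strand, Stat5a from 100859351 to 100885169 on the plus strand and Stat3 from 100885098 to 100939540 on the minus strand. Only 8626 bases separate Stat5b from Stat5a, and the 3′ ends of Stat5a and Stat3 share 72 bases. The strand setting of the counting is not given in the sources used here, so how reads of those 72 bases were counted is not known. Stat5a and Stat5b are close copies of each other, and a read that maps equally well to both would not be counted for either as uniquely aligned.

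Stat5b encodes a STAT5 protein that carries cytokine signals to the nucleus. Its level was 1243, 1168 and 1269.6 normalized reads in WTFL and 797, 854 and 938 in dKO libraries of C1. In C2 it was 979, 1014 and 1008 in WTFL and 771, 752 and 725 in dKO libraries. The groups of each clone did not overlap. Stat5b fell in C1 (log2 -0.51, standard error 0.08, adjusted p = 0.00011, limma) and in C2 (log2 -0.42, standard error 0.08, adjusted p = 0.00068, limma). These effects differed by 0.09 (95% interval -0.15 to 0.33, adjusted p = 0.59, limma).

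Stat5a, which encodes the other STAT5 protein, had 549, 526 and 596 normalized reads in WTFL and 519, 534 and 551 in dKO libraries of C1. Its level in C2 was 575, 528 and 505 in WTFL and 539, 584 and 543 in dKO libraries, and the groups overlapped in both clones. No difference was detected in C1 (log2 -0.06, 95% interval -0.24 to 0.12, adjusted p = 0.63, limma) or in C2 (log2 0.05, 95% interval -0.13 to 0.23, adjusted p = 0.66, limma). The 5 group means of Stat5a spanned 0.16 on the log2 scale, the narrowest span of the 10 genes.

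The balance of the STAT5 genes was read as the ratio of Stat5b to Stat5a reads in a library, which does not depend on the size factor. The ratio was 2.27, 2.22 and 2.13 in WTFL and 1.54, 1.60 and 1.70 in dKO libraries of C1. In C2 it was 1.70, 1.92 and 1.996 in WTFL and 1.43, 1.29 and 1.34 in dKO libraries. The dKO libraries lay below the WTFL libraries of the same clone in each case. The log2 ratio was lower by a mean of -0.45 in C1 and -0.47 in C2, and the 2-sided exact permutation test gave p = 0.1 in each, the smallest that 3 against 3 libraries allow. The ratio in dKO-LAP* libraries was 1.32, 1.37 and 1.56, which overlapped the dKO libraries (exact permutation p = 0.2, 2-sided, n = 3 each).

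**Figure D2:**
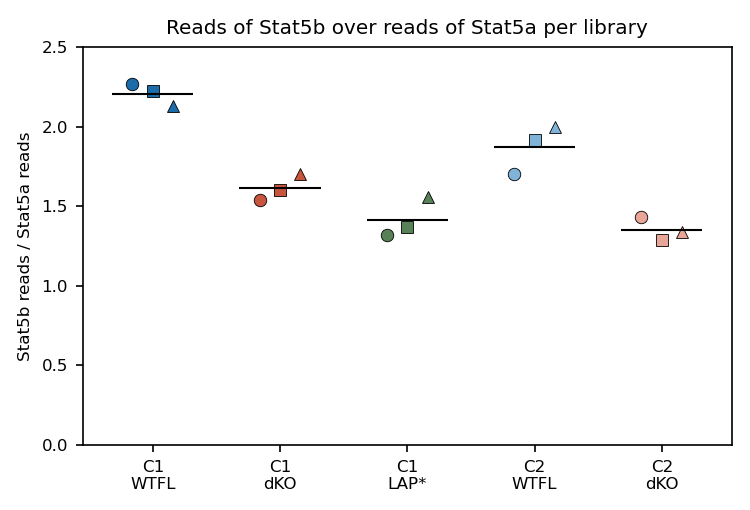
Reads of Stat5b divided by reads of Stat5a (y axis, linear, from 0) in each of the 15 libraries, by group (x axis), with a line at the mean of 3 libraries. All dKO libraries of C1 (1.54 to 1.70) lay below its WTFL libraries (2.13 to 2.27), and those of C2 (1.29 to 1.43) below theirs (1.70 to 1.996).

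Stat3 encodes the STAT used by gp130 receptors and by the G-CSF receptor. It had 2423, 2469 and 2543 normalized reads in WTFL and 1724, 1645 and 1764 in dKO libraries of C1. The C2 values were 2171, 2124 and 2203 in WTFL and 1805, 1871 and 1728 in dKO libraries. Replicates of Stat3 lay close together, and no dKO library reached a WTFL library. Stat3 fell in C1 (log2 -0.53, standard error 0.06, adjusted p = 2.3e-06, limma) and by less in C2 (log2 -0.27, standard error 0.06, adjusted p = 0.0016, limma). The difference between the clones was 0.27 (adjusted p = 0.020, limma), and this call was lost with quantile normalization (adjusted p = 0.24).

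Cish encodes CIS, a STAT5-induced protein that binds cytokine receptors and competes with STAT5. The gene lies on chromosome 9 from 107296026 to 107302784 on the plus strand, where the genes Gm17040 and Gm17041 overlap it on the other strand. It had 935, 1172 and 835 normalized reads in WTFL and 1172, 1615 and 1286 in dKO libraries of C1. In C2 it had 531, 669 and 621 in WTFL and 653, 526 and 639 in dKO libraries. The lowest dKO library of C1 was level with its highest WTFL library, and the C2 groups overlapped. The rise in C1 was 1.39-fold (log2 0.47, standard error 0.15, adjusted p = 0.020, limma). It lost the call without WTFL replicate 1 (adjusted p = 0.064) or 3 (0.082), without dKO replicate 2 (0.11) and in a fit of only the groups compared (0.071). In C2 the log2 fold change was -0.00 (95% interval -0.32 to 0.31, adjusted p = 1, limma). The effects differed by -0.47 with an adjusted p of 0.10 in limma, which became 0.035 without WTFL replicate 2 of C1.

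Socs1 encodes a SOCS protein that blocks JAK kinases directly and is best known for restraining interferon signals. It lies on chromosome 16 from 10782240 to 10785536 on the minus strand. Its level was low, with 106, 104 and 75.4 normalized reads in WTFL and 62.3, 86.0 and 76.8 in dKO libraries of C1. In C2 it was 46.8, 44.0 and 27.5 in WTFL and 86.8, 79.7 and 77.2 in dKO libraries. The groups overlapped in C1 and stood apart in C2. In C1 no difference was detected (log2 -0.33, 95% interval -0.77 to 0.10, adjusted p = 0.22, limma), while in C2 Socs1 rose 2.08-fold (log2 1.06, standard error 0.20, adjusted p = 0.00072, limma). The effects differed by 1.39 on the log2 scale (standard error 0.29, adjusted p = 0.0018, limma). The level in WTFL cells was already lower in C2 than in C1 (log2 -1.27, adjusted p = 0.00011, limma), and the dKO libraries of C1 (62.3 to 86.0) and C2 (77.2 to 86.8) overlapped.

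Socs2 encodes a SOCS protein induced by STAT5 that limits growth hormone signalling. It lies on chromosome 10 from 95385362 to 95417180 on the minus strand. It had 140.5, 208 and 202 normalized reads in WTFL and 265, 309 and 270.1 in dKO libraries of C1. The C2 values were 287, 241 and 255 in WTFL and 356, 303 and 335 in dKO libraries. The dKO libraries were above the WTFL libraries in each clone. The rise was 1.55-fold in C1 (log2 0.63, standard error 0.14, adjusted p = 0.0027, limma). In C2 the log2 value of 0.34 did not pass the threshold (adjusted p = 0.074, limma), but it did in a fit of only the groups compared (0.038), with quantile normalization (0.044), in DESeq2 (0.0457) and without WTFL replicate 1 of C1 (0.028). The difference between the clones was -0.29 (95% interval -0.72 to 0.15, adjusted p = 0.32, limma).

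Socs3, on chromosome 11 from 117966079 to 117970047 on the minus strand, encodes the inhibitor of gp130 and G-CSF receptor signals. It showed the widest range of the 10 genes. Its level was 178, 313 and 139.6 normalized reads in the WTFL libraries of C1 and 23.8, 60.8 and 48.5 in its dKO libraries. In C2 it was 24.9, 35.7 and 35.7 in WTFL and 20.9, 21.4 and 16.1 in dKO libraries. All dKO libraries lay below the WTFL libraries of their clone, and the WTFL libraries of C1 stood above all other libraries. In C1 Socs3 was 4.70-fold lower in dKO cells (log2 -2.23, standard error 0.32, adjusted p = 5.1e-05, limma). The log2 fold change in C2 was -0.69 and did not pass the threshold (95% interval -1.37 to 0.00, adjusted p = 0.11, limma). The effects differed by 1.55 (standard error 0.46, adjusted p = 0.018, limma). Before any deletion, Socs3 was 6.10-fold lower in WTFL cells of C2 than of C1 (log2 -2.61, adjusted p = 7.9e-06, limma), so the level left in dKO cells of C1 was near the WTFL level of C2.

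Pim1 encodes a survival kinase that is a classical target of STAT5 and STAT3. It lies on chromosome 17 from 29490753 to 29496112 on the plus strand, and Gm26885 overlaps it on the other strand. Its level was 7723, 9355 and 6629 normalized reads in WTFL and 4596, 5236 and 4114 in dKO libraries of C1. In C2 it was 5166, 5621 and 5314 in WTFL and 5922, 6170.5 and 6165 in dKO libraries. The dKO libraries of C1 lay below its WTFL libraries, and those of C2 lay above theirs. Pim1 fell in C1 (log2 -0.76, standard error 0.13, adjusted p = 0.00026, limma). In C2 the log2 fold change was 0.18 (95% interval -0.10 to 0.46, adjusted p = 0.30, limma), a value called in a fit of only the groups compared (adjusted p = 0.042). The effects differed by 0.94 (standard error 0.18, adjusted p = 0.0012, limma).

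Osm encodes oncostatin M, a secreted ligand of gp130 receptors whose gene is switched on by STAT5. It lies on chromosome 11 from 4236420 to 4241026 on the plus strand. It had 233, 386 and 176 normalized reads in WTFL and 120.1, 199 and 139 in dKO libraries of C1. In C2 it had 467, 539 and 497 in WTFL and 320.1, 318 and 356 in dKO libraries. The C1 groups overlapped and the C2 groups did not. Osm was lower in C1, at log2 -0.75 with a standard error of 0.27 (limma, adjusted p = 0.042). That call was lost without filter (0.057), with only the groups compared (0.13), and without WTFL replicate 1 (0.069) or 2 (0.21) or dKO replicate 1 (0.15) or 3 (0.11) of C1. It was also lost, at adjusted p from 0.0521 to 0.0536, without 5 of the 6 libraries of C2, which enter through the shared spread alone. In C2 the log2 value of -0.59 was not called (limma, adjusted p = 0.10), yet the fit of only the C2 groups called it (0.0026), as did the replicate block (0.037). The difference between the clones was 0.15 (95% interval -0.67 to 0.97, adjusted p = 0.81, limma).

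**Figure D3:**
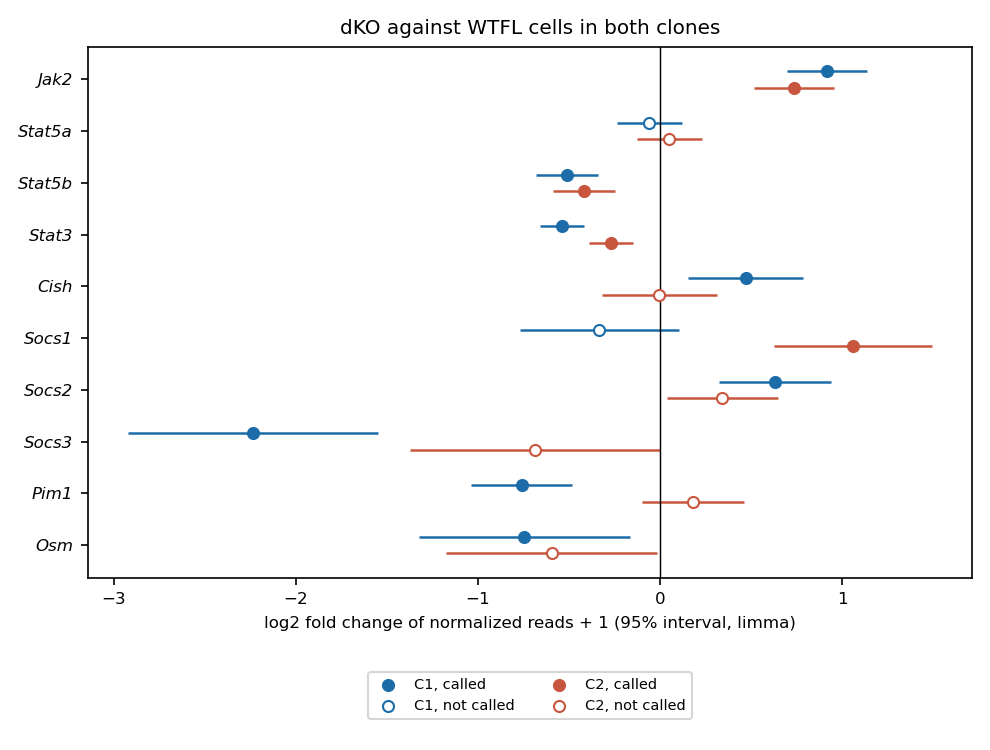
Log2 fold change (x axis) of normalized reads + 1 in dKO against WTFL cells for the 10 genes (y axis), with the 95% interval from limma. Blue is C1, red is C2, and filled points are called at an adjusted p under 0.05. Jak2 lay to the right and Stat5b and Stat3 to the left of 0 in both clones, while the calls of Socs1, Socs3 and Pim1 were made in 1 clone each.

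The log2 fold change of dKO against WTFL cells differed between C2 and C1 for 4 of the 10 genes (Stat3, Socs1, Socs3 and Pim1). Of all genes tested, 29.4% were called in that comparison. For each of the 4 the log2 fold change was the more positive in C2. The WTFL lines differed before any deletion: WTFL cells of C2 were lower than those of C1 in 7 genes (Socs3, Socs1, Cish, Pim1, Jak2, Stat5b and Stat3) and higher in Osm and Socs2, with 21.3% of all genes lower and 19.7% higher. Osm had the larger of these rises (log2 0.99, standard error 0.27, adjusted p = 0.0084, limma). The higher call of Socs2 (log2 0.52, adjusted p = 0.0086, limma) was lost with only the groups compared (0.055). Stat5a again did not pass (log2 -0.06, 95% interval -0.23 to 0.12, adjusted p = 0.65, limma).

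dKO-LAP* cells of C1 were compared with dKO and with WTFL cells of C1. These comparisons and the one of dKO with WTFL cells share libraries, so their values are set side by side only. Against dKO cells, 0 of the 10 genes were called in limma and 0 in edgeR, where 4.46% of all genes were called by limma (565 genes, and 276 to 728 with a library left out), and 2 genes (Stat5b and Cish) had an unadjusted p under 0.05. DESeq2 called these 2. Stat5b had 727, 631 and 760 normalized reads in dKO-LAP* libraries, each below the lowest dKO library (797), and the log2 difference was -0.29 (95% interval -0.46 to -0.12, adjusted p = 0.0502, limma). The adjusted p was 0.0477 with a pseudocount of 5, 0.027 in DESeq2, and 0.0492, 0.0457 and 0.0461 without WTFL replicate 2, WTFL replicate 3 or dKO replicate 1. Cish had 917, 1147 and 882 normalized reads, each below the lowest dKO library and inside the WTFL range. Its log2 fold change against dKO cells was -0.46 (95% interval -0.78 to -0.15, adjusted p = 0.094 in limma and 0.0458 in DESeq2).

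Against WTFL cells, 2 of the 10 genes were higher in dKO-LAP* cells (Jak2 and Socs2) and 5 lower (Stat5b, Stat3, Socs3, Pim1 and Osm), where 14.2% and 18.3% of all genes were called. Socs3 had 29.5, 32.3 and 33.7 normalized reads in dKO-LAP* libraries and was 6.08-fold lower than in WTFL cells (log2 -2.60, standard error 0.32, adjusted p = 1.2e-05, limma). Pim1 had 3725, 4987 and 3555 normalized reads (log2 -0.95, adjusted p = 3.1e-05, limma). Stat3 had 1695, 1651 and 1754 (log2 -0.54, adjusted p = 2.0e-06, limma), and its log2 fold change against dKO cells was -0.01 (95% interval -0.13 to 0.11). None of these libraries came back into the WTFL range. Socs2 had 242, 268 and 308 normalized reads (log2 0.58, adjusted p = 0.0053, limma, and 0.063 with only the groups compared). Osm had 116, 200.03 and 95.8 (log2 -0.94, adjusted p = 0.014, limma), a call lost without WTFL replicate 2 (0.083), dKO-LAP* replicate 1 (0.0537) or 3 (0.078) and with only the groups compared (0.11). Socs1 had 68.1, 70.1 and 72.0 and Stat5a 551, 461 and 488, and neither was called against dKO or WTFL cells.

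**Figure D4:**
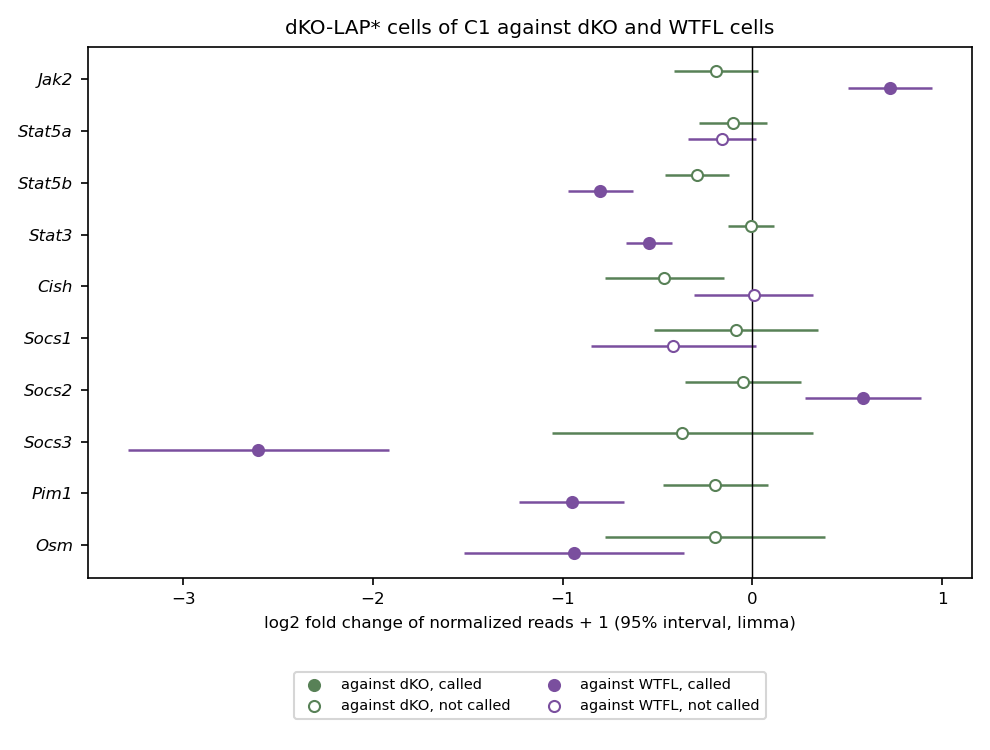
Log2 fold change (x axis) of normalized reads + 1 in dKO-LAP* cells of C1 against dKO (green) and WTFL (purple) cells, with the 95% interval from limma, for the 10 genes (y axis). Filled points are called at an adjusted p under 0.05. All 10 green points are open, with values from -0.46 to -0.01, while 7 purple points are filled.

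Levels between genes were compared as normalized reads per kilobase of merged exons. On that scale Pim1 was the highest of the 10 genes in every group, from a mean of 1216 in dKO-LAP* to 2351 in WTFL cells of C1. Jak2 held place 4 in WTFL cells of C1 (157 ± 16.8, SD, n = 3) and place 5 in those of C2 (121 ± 6.54), but place 2 in the dKO cells of C1 (296 ± 8.40) and C2 (202 ± 14.9). Stat3 held place 2 in WTFL cells of both clones (260.2 ± 6.36 and 227 ± 4.17). Socs3 was the lowest in every group but WTFL cells of C1, where Socs2 was lowest (19.3 ± 3.93) and Socs3 reached 72.7 ± 31.5.

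Some of the genes had the same library as their highest within a group. This is a description only, and joint movement of the genes was not tested. In all 3 groups of C1 the library numbered 2 was the highest for Cish, Pim1 and Osm, 3 of the 10 genes, and this held for 6.36% of all genes tested. The library numbered 3 was the highest in those groups for Stat5b and Stat3, as for 4.83% of all genes tested. The labels do not say that a number marks a shared day or batch.

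For the 5 genes whose group means spanned at least 1 on the log2 scale, the genes of most similar pattern over the 15 libraries were sought by the root mean square difference of their centred log2 values. Jak2 was most like Atxn7l3b (0.167) and Rnf24 (0.182), where the median gene differed by 0.575. Cish was most like Ankrd16 (0.149) and Zyx (0.15), and Socs1 most like Camkk2 (0.245) and Hoxa7 (0.25). Socs3 was most like Psap (0.379) and Irf9 (0.381), with a median of 1.23 over all genes. Irf9, a transcription factor of the interferon response, had a mean of 932 normalized reads in WTFL cells of C1 and of 110.0 to 147 in the other groups. Osm was most like Ppp1r15a (0.245) and Snx24 (0.265).

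The rest of the pathway was read from lists of 70 other genes, of which 60 were tested. In C1 6 were higher, 30 lower and 24 not called in dKO cells, with a median log2 fold change of -0.35, beside 17.1% of all genes higher, 19.9% lower and a median of -0.01. In C2 11 were higher, 13 lower and 36 not called, with a median of -0.05. These C2 counts are near the share of all genes, of which 17.4% were higher and 20.1% lower. Il6st, which encodes gp130, fell strongly in both clones. gp130 is the shared signalling chain of the receptors for IL-6 and oncostatin M. Il6st had 282, 305 and 259 normalized reads in WTFL and 12.5, 15.7 and 38.0 in dKO libraries of C1 (log2 -3.78, standard error 0.32, adjusted p = 1.7e-07, limma). In C2 it had 147, 117 and 102 in WTFL and 12.6, 9.72 and 10.7 in dKO libraries (log2 -3.35, standard error 0.32, adjusted p = 8.0e-07, limma). It remained at 15.2, 21.2 and 26.5 in dKO-LAP* libraries (log2 0.06 against dKO cells, adjusted p = 0.95, limma). Of the 10 listed receptors and ligands of the gp130 family only 4 were tested. Il6st alone fell in C1, and in C2 1 gene fell and 1 rose.

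Of the 3 other JAK kinases, all were called lower in limma in dKO cells of C1 and 1, Jak1, in C2, beside 19.9% and 20.1% of all genes. Jak1 was lower by little (log2 -0.20 in C1 and -0.21 in C2, limma, adjusted p = 0.017 and 0.012), and the C1 call was lost with quantile normalization (0.32), with only the groups compared (0.056) and without WTFL replicate 1 (0.083) or dKO replicate 1 (0.061) of C1, and the C2 call without WTFL replicate 2 of C2 (0.057). Of the 4 JAK genes only Jak2 was called higher, and it was in both clones. Among the other STAT genes, Stat4 was lower in dKO cells of both clones, and Stat2 was called lower in limma in C1 (adjusted p = 0.0043), though not in a fit of only the groups compared. Stat2 had a log2 value of 0.52 in C2 (limma, adjusted p = 0.19), which was called in a fit of only the groups compared and without WTFL replicate 3 of C1. Stat4 had 177, 180.4 and 152 normalized reads in WTFL and 44.2, 50.4 and 32.7 in dKO libraries of C1 (adjusted p = 1.5e-05, limma). The C2 values were 103, 52.4 and 72.4 in WTFL and 2.09, 1.94 and 1.07 in dKO libraries (adjusted p = 1.1e-09, limma), at most 2 reads in a library. The WTFL libraries of C1 were far apart for Stat2, at 1697, 1312 and 492, the last of which was near its highest dKO library (480.1).

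Of the 4 other SOCS genes, Socs5 was higher in both clones. Socs7 was called lower in limma in C1 (log2 -0.31, adjusted p = 0.039), a call lost in edgeR (0.0509), in DESeq2 (0.055), with the replicate block (0.052) and quantile normalization (0.096), without filter (0.059) and without WTFL replicate 1 or 3 or any dKO replicate of C1. The Socs5 log2 fold change was 0.51 in C1 (adjusted p = 0.030, limma) and 1.14 in C2 (adjusted p = 9.2e-05, limma), and the C1 call was lost with only the groups compared (0.085) and without WTFL replicate 1 (0.091) or 2 (0.11) or dKO replicate 1 (0.13) or 3 (0.0511) of C1. Both other PIM kinases were lower in C1, and limma called neither in C2. Pim3, with an adjusted p of 0.056 in limma in C2, was called lower there in edgeR, in DESeq2, with only the groups compared, with the replicate block and without any of 4 libraries of C1 (WTFL replicate 2, dKO replicate 1 and dKO-LAP* replicates 2 and 3). Among the 13 other negative regulators 1 rose and 7 fell in C1, and 4 rose and 1 fell in C2, where 17.1% of all genes rose and 19.9% fell in C1 and 17.4% and 20.1% in C2. Pias3, an inhibitor of STAT3, was higher in both clones (log2 0.69 and 0.52, adjusted p = 0.00017 and 0.0018, limma). Ptpn1, a phosphatase that acts on JAK2, fell in C1 (log2 -0.84, adjusted p = 8.8e-07, limma), and its log2 value in C2 was 0.10 (adjusted p = 0.36, limma).

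Among the 5 receptor genes of the IL-3 and GM-CSF family, 2 were higher and 1 lower in C1 and 1 higher and 1 lower in C2, beside 17.1% higher and 19.9% lower of all genes in C1 and 17.4% and 20.1% in C2. Il5ra, the IL-5 receptor chain of eosinophils, had no read in any WTFL library and was called higher in both clones. The counts above include it. It passed the filter through the dKO libraries of C1 alone, so its call there is not independent of the filter. Its call in C2 rests on 3 to 4 reads per dKO library, near the floor of 3 reads. It had 68.0, 49.3 and 44.1 normalized reads in dKO libraries of C1 (adjusted p = 1.1e-08, limma) and 3.14, 2.92 and 4.29 in those of C2 (adjusted p = 0.00035, limma). Of the 12 other JAK-coupled receptor genes 10 were tested, and 6 were lower in C1 and 5 in C2, with none higher in limma, beside 19.9% and 20.1% of all genes called lower. Il2rg, the common chain of the IL-2 receptor family, fell in C1 (log2 -1.47, adjusted p = 2.2e-09, limma) and in C2 (log2 -0.60, adjusted p = 3.5e-05, limma). Ifngr1, an interferon-gamma receptor chain, was lower too (log2 -0.34 in C1 and -0.45 in C2, limma, adjusted p = 0.0044 and 0.00051), and quantile normalization ended the C1 call (0.058). Il10ra was called lower in C2 at a level near the floor of 3 reads, with 2 to 6 reads in WTFL and 0 to 2 reads in dKO libraries (adjusted p = 0.0076 in limma, 0.090 in edgeR and 0.062 in DESeq2). In C1 it had 329, 335 and 220.1 normalized reads in WTFL and 122, 152 and 220.6 in dKO libraries. The log2 value there was -0.85 (adjusted p = 0.11 in limma, 0.0092 in edgeR and 0.0035 in DESeq2).

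Of the 11 tested STAT5 target genes outside the 10 genes, 2 were higher and 4 lower in C1 and 3 were higher and 0 lower in C2 by limma. The shares of all genes, against which these and the STAT3 target counts are to be read, were 17.1% higher and 19.9% lower in C1 and 17.4% and 20.1% in C2. Ccnd3, a D-type cyclin, rose in both (log2 0.37 and 0.25, adjusted p = 0.0013 and 0.019, limma), and the C2 call was lost with quantile normalization (0.0511), with only the groups compared (0.051) and without WTFL replicate 1 (0.087) or 3 (0.0501) or dKO replicate 1 (0.075) or 3 (0.079) of C2. Ccnd2 was lower in C1 (log2 -0.76, adjusted p = 0.00052, limma) and higher in C2 (log2 0.86, adjusted p = 0.00018, limma). Ccnd1 was low, with 45.5, 56.8 and 11.2 normalized reads in WTFL and 5.66, 9.44 and 9.71 in dKO libraries of C1 (log2 -1.82, adjusted p = 0.0060, limma, and 0.061 with only the groups compared). Bcl6 was higher in C1 (log2 1.27, adjusted p = 0.022, limma). That call was lost with only the groups compared (0.092) and without WTFL replicate 3 (0.1) or dKO replicate 1 (0.057) or 3 (0.066) of C1. Spred2 was lower in C1 (log2 -0.48, adjusted p = 0.0086, limma, and 0.056 with only the groups compared). Of the 7 tested STAT3 target genes, 2 fell in C1, and in C2 4 fell and 2 rose. Bcl3, a regulator of NF-κB, was lower in both clones (log2 -1.73 and -1.49, adjusted p = 7.9e-06 and 4.1e-05, limma). Hif1a, the hypoxia factor, also was (log2 -0.44 and -0.57, adjusted p = 0.018 and 0.0036, limma), and its C1 call was lost with quantile normalization (0.058) and without WTFL replicate 1 (0.059) or 2 (0.079) or dKO replicate 2 (0.067) or 3 (0.056) of C1.

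**Figure D5:**
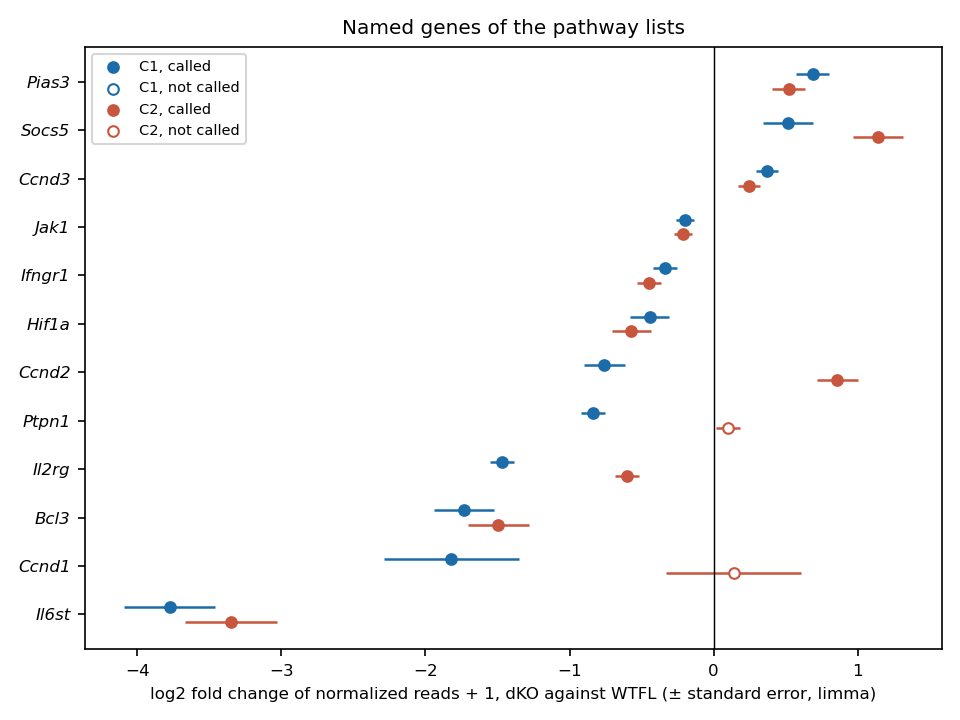
Log2 fold change (x axis) of normalized reads + 1 in dKO against WTFL cells, with the standard error from limma, for 12 named genes of the pathway lists (y axis). Blue is C1, red is C2, and filled points are called. Il6st lay farthest to the left in both clones, at -3.78 and -3.35. Il5ra, Il10ra and Stat4 are not drawn because at least 1 group was at 3 reads or fewer per library.

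LAP* left 55 of the 60 tested pathway genes uncalled against dKO cells and 5 lower, with 0 higher in limma, beside 4.46% of all genes called in either direction. The 5 are Il5ra, Csf2ra, Csf3r, Dusp5 and Fos, named here after their values were seen. Csf3r, the G-CSF receptor that signals through STAT3, had 869, 953 and 942 normalized reads in dKO and 318, 360 and 349 in dKO-LAP* libraries (log2 -1.43, adjusted p = 1.5e-05, limma). Csf2ra, the GM-CSF receptor chain, fell less (log2 -0.54, limma, adjusted p = 0.012), a call lost with only the groups compared (0.065) and without dKO replicate 2 (0.072) or dKO-LAP* replicate 3 (0.065). Dusp5 lost its call with only the groups compared (0.062). The call of Fos was lost with a pseudocount of 0.1 (0.0506), quantile normalization (0.0509) and only the groups compared (0.059) and without any 1 of the 6 dKO and dKO-LAP* libraries of C1 (0.062 to 0.13). The calls of Il5ra and Csf3r held in each of these settings. Il5ra, however, had passed the filter through the dKO libraries of C1 alone, so its call is not independent of the filter.

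Sums of eosinophil, mast cell and basophil, and monocyte and macrophage markers differed between WTFL and dKO libraries without overlap in both clones, and those of neutrophil markers in C1 but not in C2. A sum is carried by its most abundant markers, and some single markers overlapped or went the other way. The summed level of 9 eosinophil markers was 136 to 238 normalized reads in WTFL and 9081 to 17648 in dKO libraries of C1, 1147 to 2244 with LAP*, and 22.02 to 32.1 and 276 to 385 in WTFL and dKO libraries of C2. For 9 mast cell and basophil markers, of which Tpsb2 was at 0 in every group, the sums in that order were 104 to 144, 2894 to 3305, 1094 to 1310, 180.5 to 192 and 976 to 1379. Ms4a2 of that list went the other way in C2, with 47.6 to 69.7 in WTFL and 5.23 to 12.6 in dKO libraries. The sum of 10 monocyte and macrophage markers was 52541 to 73888 in WTFL and 32540 to 38682 in dKO libraries of C1, 31793 to 33916 with LAP*, and 21017 to 22916 and 15123 to 18096 in WTFL and dKO libraries of C2. Adgre1, a macrophage marker of that list, went the other way in C2, from a mean of 293 in WTFL to 1421 in dKO libraries. Csf1r of that list overlapped in C2, with 35.85 to 65.05 in WTFL and 46.66 to 68.65 in dKO libraries. Lyz2 did too, with 1190 to 3111 and 1619 to 2320. For 10 neutrophil markers the sums, in the same order, were 27412 to 35627, 95515 to 119020, 37621 to 42170, 51798 to 94098 and 60385 to 94796. In C2 Ly6g was lower in dKO libraries (15.55 to 24.06) than in WTFL libraries (45.81 to 90.7). Retnlg was lower there too (2.92 to 6.28 against 17.93 to 61.86), while Ltf, Mmp8 and Mmp9 were higher without overlap. The part of these cell types in the values of Socs3, Osm, Jak2 and the other genes was not tested, and in bulk RNA fewer cells of a type and less RNA per cell cannot be told apart. All 10 markers of myeloid progenitors, the labelled cell state, were read in every group. Their sums were 107320 to 110120 in WTFL and 184000 to 211280 in dKO libraries of C1, 176480 to 212000 with LAP*, and 108710 to 114120 and 154170 to 177010 in WTFL and dKO libraries of C2, so the sums too were higher without overlap in dKO libraries. Ctsg of that list was lower in C2, with 22653 to 27724 in WTFL and 7660.0 to 11266 in dKO libraries. In C1 Ctsg, Spi1 and Ptprc overlapped between WTFL and dKO libraries, as did Itgam and Ptprc in C2. Of the lymphoid markers Ebf1, Rag1 and Ncr1 were at 0 in every group, and of the hepatocyte markers Alb, Apoa1, Ttr and Serpina1a were. The lymphoid sum was 38.7 to 57.5 in WTFL and 1.13 to 4.20 in dKO libraries of C1, 5.08 to 9.12 with LAP*, and 1.00 to 2.75 and 2.92 to 13.6 in WTFL and dKO libraries of C2, and most of it in WTFL cells of C1 was Il7r. The fifth hepatocyte marker, Afp, had 27.1 to 36.1 in WTFL and 7.06 to 10.5 in dKO libraries of C1, 4.61 to 9.14 with LAP*, and 106 to 165 and 72.9 to 83.7 in WTFL and dKO libraries of C2. For 9 erythroid and megakaryocyte markers the sums were 17.9 to 45.1 in WTFL libraries of both clones, 124 to 315 in dKO libraries and 47.0 to 79.2 with LAP*. Most of the dKO sums was Itga2b, with 156 to 264 in dKO libraries of C1 and 110 to 187 in those of C2. Pf4 of that list went the other way in C1, with 16.3 to 33.4 in WTFL and 5.24 to 9.06 in dKO libraries.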

How the data were processed

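RNA of 15 cultures was sequenced paired-end from stranded mRNA libraries. Per the submitters' processing notes, the authors used STAR 2.5.3a, mm10, HTSeq 0.10.0 and DESeq2 1.26.0. The gene annotation is not given in the sources used here. The deposited signal is a normalized read count per gene, a count divided by the library's size factor (0.747 to 1.13). Nonzero values came out as whole reads in 100.0% of cases, with a tolerance of 0.1, and a library had between 9212237 and 13613500 reads on genes (median 11885279). HTSeq's 5 rows of other reads, 22.4% to 26.2% of a library, were left out, and 3 columns headed as LAPS of C2, which match no sample description used here, were not used. The authors' comparisons were not used.

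limma 3.58.1 in R 4.3.3 was fitted to log2(normalized reads + 1) with 1 mean per group and a trended prior over all 15 libraries. A gene was tested if 3 or more libraries had 10 or more normalized reads of it, as was so for 12673 of the 24520 genes read at all. A Benjamini-Hochberg adjusted p under 0.05 over all of them was a call. Fold changes on this scale understate those of low genes. Alternatives were pseudocounts of 0.1 and 5, no filter, quantile normalization, a fit of the compared groups alone, a block for the replicate number, edgeR 4.0.16, DESeq2 1.42.0 and each library left out in turn. The same alternatives were run after seeing the data for the named listed genes, in the comparisons of dKO with WTFL cells, for the difference between the clones and, for genes called there, in dKO-LAP* against dKO cells. The scripts were tested on simulated data. Positions are from GENCODE vM21 and promoter windows from RefSeq. pandas 2.3.3, numpy 2.4.6 and matplotlib 3.10.9 in Python 3.11.15 made the tables and plots.

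The 10 genes, the pathway lists and the marker lists were chosen with earlier results of these data known. All 10 genes are named. From the lists, genes that C1 and C2 both called with 1 direction are named, and for each list of 5 or more genes the gene with the largest called change in each clone. Stat2, Pim3, Socs7, Bcl6, Spred2, Csf2ra, Csf3r, Dusp5 and Fos were named in addition, after their values were seen. For genes whose group means span at least 1, the 2 genes of most similar pattern are named. The values of some listed genes are not reported here.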

Additional observations from a re-analysis of the deposited data

Results flagged for a closer look

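The following differed between the clones, by limma's test of the dKO effect in C2 minus that in C1. Among the 10 genes these were Stat3 with a log2 difference of 0.27, Socs1 with 1.39, Socs3 with 1.55 and Pim1 with 0.94. The WTFL cells of C1 and C2 also differed in each of these 4 genes (adjusted p = 0.012, 0.00011, 7.9e-06 and 0.0033, limma). Among the genes of the pathway lists that the rule named they were Ccnd1 with 1.96, Ccnd2 with 1.62, Il2rg with 0.87, Ptpn1 with 0.94, Il5ra with -3.61 and Stat4 with -2.81. Among the listed genes named after their values were seen they were Stat2 with 1.73, Fos with 1.54, Dusp5 with 1.03, Csf2ra with 0.83 and Csf3r with -0.65 (adjusted p = 0.0054, 0.013, 0.0019, 0.00097 and 0.016, limma), and these 5 calls held under each of the 8 alternatives and with each library left out. The values of Il5ra and Stat4 depend on the pseudocount, because a group of each held 4 reads or fewer per library. Il5ra was not called in edgeR (adjusted p = 1) or DESeq2 (0.11). The Ccnd1 difference (adjusted p = 0.035, limma) was lost without filter (0.071), with only the groups compared (0.0537) and without any of 7 libraries (0.072 to 0.091).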

How the results depend on the processing

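No called log2 fold change of the 10 genes changed sign under any of the 8 alternatives or with any library left out. Some values that were not called and lay near 0 did. Stat5a in C1, at -0.06, was 0.00 with quantile normalization, and the sign of Cish in C2 changed with it, in edgeR and in DESeq2. With a library left out the Cish value in C2 ran from -0.10 to 0.10 and the clone difference of Osm from -0.16 to 0.40. The dKO-LAP* values against dKO cells of Osm, Socs1, Socs2 and Stat3 also crossed 0 in that way, as did that of Cish against WTFL cells (-0.11 to 0.14). Of 480 such values under the alternatives, 464 kept their side of the threshold, 9 passed it newly and 7 fell short of it. Of 900 values with a library left out these numbers were 880, 5 and 15. For the 15 genes of the pathway lists that the rule named, again with no called value changing sign, they were 338, 5 and 17 under the alternatives and 649, 4 and 22 with a library left out. In C2, 7 of the 10 genes were called in a fit of only the groups compared, against 4 in the fit of all libraries. Of the 12673 genes tested, that fit called 2175 higher and 2535 lower, against 2211 and 2549. For dKO-LAP* against dKO cells, 1 of the 10 genes was called with a pseudocount of 5 and 2 in DESeq2, against 0, and 0 to 1 with a library left out. Among all genes, 203 were called higher and 442 lower with that pseudocount, and 265 and 522 in DESeq2. In the main fit of dKO-LAP* against dKO cells the number of calls among all genes was 565, and 276 to 728 with a library left out. It was 333, 278 and 366 without dKO replicates 1, 2 and 3 and 297 and 276 without dKO-LAP* replicates 2 and 3. Quantile normalization moved the balance of calls among all genes for dKO against WTFL cells of C1 from 2170 higher and 2516 lower to 2681 and 2052, and for dKO-LAP* against WTFL cells from 1796 and 2322 to 2521 and 1910. The larger side changed with it also in C2 (2211 and 2549 to 2416 and 2289), between the WTFL lines (2493 and 2699 to 2886 and 2378) and for the difference between the clones (1910 and 1810 to 1752 and 1923). Without filter the larger side changed as well between the WTFL lines (2864 and 2850) and for the difference between the clones (1842 and 1909). A fit of only the groups compared moved the balance for dKO-LAP* against dKO cells from 181 and 384 to 86 and 317. Same-numbered libraries did not deviate together in every pair (correlations across genes from -0.319 to 0.297), so the numbers were not taken as pairs. With the replicate block, Osm was called lower in C2 (log2 -0.59, adjusted p = 0.037, limma), no other call of the 10 genes changed, and the difference of the Ccnd1 effect between the clones lost its call (adjusted p = 0.0535, limma). Among the 10 genes Socs1 and Socs3 had the fewest reads and thus the widest counting error, as had the listed genes near 3 reads. With 3 libraries a group, a p above the threshold does not show that levels were equal.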
